A study of Rattus norvegicus with 16 samples.

Results

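Interferon-stimulated genes are the genes that cells switch on when they sense interferon, the alarm cytokine of antiviral defence. The 10 described here, Mx1, Mx2, Ifit2, Ifit3, Oas1a, Irf1, Irf7, Isg15, Rsad2 and Gbp2, were taken by name. Every non-control probe that the array annotation gives one of these names was used, which found all 10 genes on 11 of 30367 probes (10 of 26583 gene names), with 2 probes for Irf1 and 1 for each of the others. They were measured in the hippocampus of 16 Sprague-Dawley rats, 1 single-colour array per rat. The 3 Naïve rats were uninjured and undrugged, and the 2 Sham rats had the anesthesia and preparation without the pressure pulse. The 3 TBI rats received that pulse, a severe fluid percussion injury of the brain, and no drug. The remaining rats were injured in the same way and given a drug: PMI (3 rats) or JM6 (3 rats) by oral gavage, or E33 (2 rats). In the paper PMI is PMI-006, JM6 is a compound tried earlier in a Huntington's disease model, and estradiol stands where the labels have E33. The labels have E33 given subcutaneously and the methods have estradiol given into the peritoneum, so the route is not settled. All brains were taken 24 h after injury or the equivalent time. The methods give adult male rats and 3 per group, of which 2 Sham and 2 TBI+E33 rats were analysed here, and the whole hippocampus mixes neurons, glia, vessels and any blood cells that entered.

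As background, virus RNA or DNA is sensed inside the cell by receptors such as Ddx58, Ifih1 and the Toll-like receptors, which activate Irf3 and Irf7 and so the interferon genes. Type I interferon then binds Ifnar1 and its partner, Jak kinases switch on transcription factors of the Stat family, and these join Irf9 to form the factor ISGF3, which binds the interferon-stimulated response element (ISRE). Interferon gamma acts through Ifngr1 and Ifngr2 and leads to binding at the gamma-activated site (GAS). Usp18, Socs1 and Socs3 damp the signal. In the brain, microglia, astrocytes, endothelial cells and neurons can all respond, and this programme also runs without virus when damaged cells release nucleic acids.

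The members' own promoters hold these elements to different degrees. RefSeq promoters (GRCr8, 250 bases before to 50 after the start) were found for 7 of the 10 members, with no entry for Mx2, Ifit2 and Isg15. They were searched on both strands for the ISRE core GAAANNGAA, which ISGF3 and the Irf factors read, and for the GAS core TTCNNNGAA. The ISRE core was present in 5 of the 7 (Ifit3, Oas1a, Irf7, Rsad2 and Gbp2), while 9.71% of 33469 promoters of this length hold it. The GAS core was present in Oas1a and Irf1, while 8.87% of promoters hold it. Mx1 had neither in this window. The stretches below are shown because they separate the members with an ISRE from Irf1, which has only a GAS here. Capitals mark the core, and each is printed 5′ to 3′ on the strand of its gene with 15 bases on either side.
Ifit3 ISRE, pair of cores (chr1:241527268-241527325, + strand): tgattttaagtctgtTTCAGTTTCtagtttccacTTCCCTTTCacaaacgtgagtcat
Oas1a ISRE, overlapping pair of cores (chr12:41330410-41330454, + strand): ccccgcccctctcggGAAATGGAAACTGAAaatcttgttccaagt
Irf7 ISRE (chr1:205800068-205800106, - strand): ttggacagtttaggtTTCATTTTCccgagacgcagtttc
Rsad2 ISRE (chr6:48788243-48788281, - strand): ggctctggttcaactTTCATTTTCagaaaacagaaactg
Gbp2 ISRE (chr2:234005682-234005720, + strand): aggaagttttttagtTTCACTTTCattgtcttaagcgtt
Irf1 GAS (chr10:38417778-38417816, + strand): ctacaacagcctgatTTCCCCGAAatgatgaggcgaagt
Oas1a GAS (chr12:41330252-41330290, + strand): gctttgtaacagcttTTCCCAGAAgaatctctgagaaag
In Ifit3, Irf7, Rsad2 and Gbp2 the core lies on the opposite strand, so it reads TTCNNTTTC here. The cores of Ifit3, Oas1a and Gbp2 begin within 45 bases of the start, at -43 and -24, -41 and -35, and -30, and those of Irf7 and Rsad2 lie further out at -68 and -146. Among the 46 other interferon-stimulated genes listed for comparison, 25 of the 40 with a promoter held the ISRE core. So did 7 of 10 antigen presentation and chemokine genes, 3 of 5 interferons, 1 of 2 feedback inhibitors, 1 of 7 sensors and inducers, and 0 of 7 receptor and signalling genes. A match describes the letters only, since binding was not measured.

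Values below are log2 of the signal divided by the 75th percentile of the probes well above background on the same array, so 0 is that percentile and 1 unit is a 2-fold step. They compare 1 probe across rats and do not rank one gene's mRNA against another's. Tests covered the 22827 probes that were well above background throughout at least 1 group. A difference was called when its p from a limma fit over all 16 arrays, after Benjamini-Hochberg adjustment over those probes, was under 0.05. The Naïve, Sham and TBI arrays were scanned in one session and had 16282 to 18245 probes well above background, and the drug arrays were scanned in another and had 20259 to 24984. Any difference between a drug group and TBI therefore cannot be told apart from the session. All 10 members were tested and were well above background on all 16 arrays, except Ifit3 (not in 1 of 3 Naïve rats), Rsad2 (not in 1 of 2 Sham rats) and the dimmer Irf1 probe (its spot was left out as an outlier in 1 TBI+JM6 rat). The expected cell types were present, with 9 of 9 microglial markers and at least 4 of 6 neuronal markers above background on every array of each group.

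After injury the clearest member was Gbp2, a large GTPase that is induced by interferon gamma and attacks intracellular pathogens (probe at chr2:240541001-240541060, rn4). Its signal was -3.11, -1.89 and -2.93 in Naïve, -2.42 and -2.44 in Sham, and -1.81, -0.29 and 0.01 in TBI rats. Every TBI rat lay above every Naïve and Sham rat, although TBI 1 was close to the highest Naïve rat. Gbp2 rose by 1.73 (SE 0.49, 3.32-fold) in TBI vs. Sham, with an adjusted p of 0.0446 in limma, and by 1.94 (SE 0.44, 3.85-fold) in TBI vs. Naïve, with an adjusted p of 0.0276. It was the 1 member of 10 called in each comparison. Of all probes, 2.93% were called higher in TBI vs. Sham and 2.98% in TBI vs. Naïve. The Gbp2 call depended on single rats: leaving out Sham 1, Sham 2, TBI 2 or TBI 3 ended it in TBI vs. Sham, with adjusted p of 0.157, 0.164, 0.136 and 0.15, and over all alternatives tried the log2 difference of Gbp2 was 1.38 to 2.29 with an adjusted p of 0.00272 to 0.8. Leaving out Naïve 1, Naïve 3, TBI 2 or TBI 3 ended it in TBI vs. Naïve (adjusted p 0.111, 0.0755, 0.097 and 0.107), where it was 1.59 to 2.5 over all alternatives. Both Sham arrays lay on one slide and all TBI arrays on another, so TBI vs. Sham coincides with slide, and the Naïve rats alone link the slides. With slide as a fixed block Gbp2 was not called in TBI vs. Sham (2.17, SE 1.02, adjusted p = 0.8) or in TBI vs. Naïve (2.23, SE 0.77, adjusted p = 0.498). On the TBI slide itself the 1 Naïve rat, at -2.93, was below all 3 TBI rats.

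Irf1, the transcription factor that carries the interferon gamma response, showed the smaller but tighter shift. Its brighter probe (chr10:39227520-39227579) gave -2.16, -2.16 and -2.61 in Naïve, -2.22 and -1.86 in Sham, and -1.75, -1.17 and -1.32 in TBI rats. On this probe the TBI rats again lay above all others. The difference was 0.90 (SE 0.26) in TBI vs. Naïve, with an adjusted p of 0.0689 in limma that just missed the threshold, and 0.63 (SE 0.29, adjusted p = 0.195) in TBI vs. Sham. The dimmer Irf1 probe, which spans 235 bases of the genome at chr10:39224461-39224695 and so crosses an intron, gave 0.65 (SE 0.34) and 0.11 (SE 0.38). On it the groups overlapped, with TBI 3 (-4.65) below both Sham rats (-4.59 and -4.38) and Naïve 2 (-4.30). Gbp2, Irf1 and Ifit3 made 3 of 10 members whose TBI rats all lay above both Sham rats, as was so for 17.2% of all probes. In TBI vs. Naïve only Gbp2 and Irf1 did, 2 of 10 against 12.5% of all probes.

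**Figure D1:**
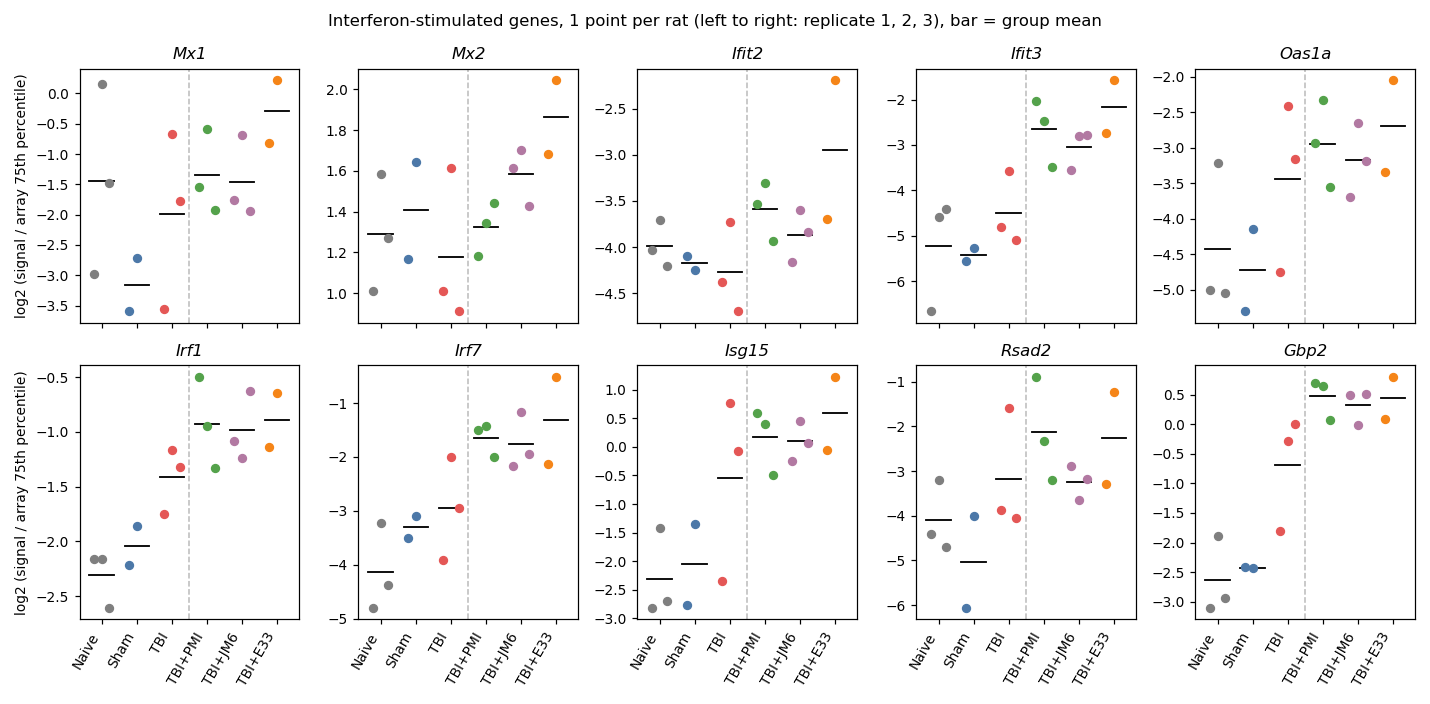
Log2 signal relative to the array's 75th percentile (y axis, a scale of its own for each gene) of the 10 genes in each rat (points) by group (x axis), with group means as bars; the dashed line parts the 2 scan sessions. Gbp2 and Irf1 of the TBI rats lie above those of all Naïve and Sham rats, while for Isg15 and Oas1a TBI 1 lies among the uninjured rats and TBI 2 far above it.

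Of the direct antiviral effectors, Isg15, Rsad2, Oas1a, Mx1, Mx2, Ifit2 and Ifit3, none was called by limma after injury with all rats in the fit, and their mean differences ran in both directions. Isg15, a ubiquitin-like protein that is conjugated to other proteins (chr5:173034674-173034733), gave -2.82, -1.42 and -2.71 in Naïve, -2.76 and -1.36 in Sham, and -2.34, 0.77 and -0.07 in TBI rats. TBI 1 lay among the uninjured rats and the other two TBI rats above all of them. Its difference was 1.51 (SE 0.78, adjusted p = 0.244) in TBI vs. Sham and 1.77 (SE 0.70, adjusted p = 0.169) in TBI vs. Naïve by limma. Without TBI 1, Isg15 was called in both, at 2.41 (adjusted p = 0.0202) and 2.66 (adjusted p = 0.0143).

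Rsad2, or viperin, an enzyme that makes a nucleotide that stops viral RNA synthesis (chr6:44100787-44100846), gave -4.40, -3.19 and -4.69 in Naïve, -6.06 and -4.00 in Sham, and -3.86, -1.59 and -4.06 in TBI rats. Its large mean difference in TBI vs. Sham, 1.86 (SE 0.90, adjusted p = 0.213), came from 1 high TBI rat and from 1 Sham rat that was not well above background. Oas1a, which makes the 2-5A signal for RNA decay (chr12:36815068-36815127), gave -5.00, -3.21 and -5.05 in Naïve, -5.30 and -4.14 in Sham, and -4.75, -2.41 and -3.15 in TBI rats. It differed by 1.29 (SE 0.73, adjusted p = 0.288) in TBI vs. Sham, and because the rat has several near-identical Oas1 genes the probe may also read its copies.

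Mx1, a dynamin-like GTPase that blocks viral nucleocapsids (chr11:37438580-37438639), was the most variable member among uninjured rats. It gave -2.99, 0.16 and -1.48 in Naïve, -3.59 and -2.71 in Sham, and -3.55, -0.66 and -1.77 in TBI rats. Naïve 2 was the highest of the 8, and its 3 Naïve rats spanned 8.83-fold. The TBI mean was 1.16 (SE 0.89) above Sham and 0.56 (SE 0.80) below Naïve, and neither difference was called (adjusted p = 0.444 and 0.762).

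Mx2, its paralogue on the same chromosome (chr11:37572657-37572716), was steady. It gave 1.01, 1.59 and 1.27 in Naïve, 1.17 and 1.64 in Sham, and 1.01, 1.61 and 0.91 in TBI rats, and these ranges overlapped throughout. Its difference was -0.23 (SE 0.25, adjusted p = 0.596) in TBI vs. Sham.

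The neighbouring genes Ifit2 and Ifit3, which bind foreign RNA and help to block its translation, differed from each other in their values. Ifit2 (chr1:238565078-238565137) gave -4.04, -3.71 and -4.21 in Naïve, -4.10 and -4.25 in Sham, and -4.38, -3.73 and -4.69 in TBI rats, with a difference of -0.09 (SE 0.39, adjusted p = 0.907) in TBI vs. Sham. Ifit3 (chr1:238575730-238575789) gave -6.66, -4.59 and -4.41 in Naïve, -5.56 and -5.28 in Sham, and -4.81, -3.58 and -5.09 in TBI rats, with a difference of 0.92 (SE 0.67, adjusted p = 0.414). The TBI rats overlapped both control groups for Ifit2, and for Ifit3 they lay above the Sham rats but not the Naïve rats. Irf7, the master factor of the interferon amplification loop (chr1:201456889-201456948), gave -4.80, -3.22 and -4.38 in Naïve, -3.50 and -3.09 in Sham, and -3.91, -1.99 and -2.94 in TBI rats. It differed by 1.18 (SE 0.54, adjusted p = 0.233) in TBI vs. Naïve and by 0.35 (SE 0.60, adjusted p = 0.753) in TBI vs. Sham.

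Over the 10 members the median log2 difference was 1.04 in TBI vs. Sham, with 8 of 10 above 0, and 0.91 in TBI vs. Naïve, with 7 of 10 above 0. The medians of all tested probes were -0.03 and 0.04. The quantile scale gave member medians of 1.01 and 0.74. In Sham vs. Naïve the members' median was -0.04, and 5 of 10 were above 0. In that comparison 0 were called by limma, at an adjusted or an unadjusted p under 0.05, or by the methods' t-test. Of all probes 8.08% were called and 6.57% were called higher. The members were not tested as a set, and with 2 Sham rats a shift was not excluded. The lowest member in that comparison was Mx1 at -1.72 (SE 0.89, adjusted p = 0.283) and the highest Irf7 at 0.84 (SE 0.60, adjusted p = 0.462).

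**Figure D2:**
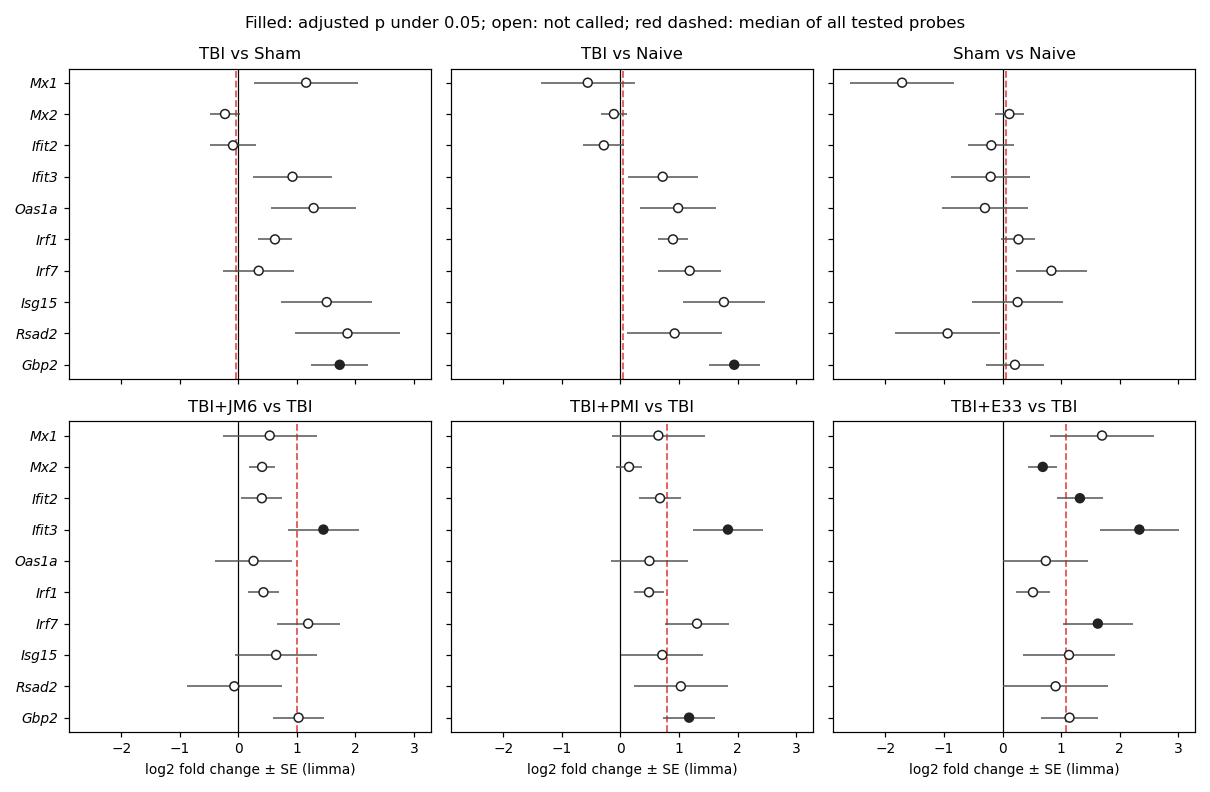
Log2 fold change (x axis, limma, bars are 1 SE) of the 10 genes (y axis) in 6 comparisons, filled where called, with the median of all tested probes as a red dashed line. Gbp2 is the called gene in the TBI comparisons with Sham and Naïve, and the members scatter around the shifted median of all probes in the 3 drug comparisons.

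Rats of one group differed more in these genes than in a typical probe. The range between the highest and lowest TBI rat had a median of 1.87 log2 units over the members, against 0.58 over all tested probes, and all 10 members were above that 0.58. In Naïve rats it was 1.45 against 0.47, and between the pair of TBI+E33 rats 1.23 against 0.20. The gap was smaller elsewhere: 0.96 against 0.49 in TBI+PMI, 0.73 against 0.52 in TBI+JM6 and 0.44 against 0.33 between the Sham rats. In Sham 7 of 10 members were above the median of all probes, and in TBI+JM6 8 of 10. Isg15 spanned 8.63-fold, Mx1 7.42-fold, Rsad2 5.55-fold and Oas1a 5.04-fold among the 3 TBI rats, while Irf1 spanned 1.5-fold and Mx2 1.63-fold.

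The same rat tended to be high for most members. TBI 2 had the highest value of its group for 9 of 10 members, Naïve 2 and Sham 2 for 8 of 10 each, TBI+JM6 2 for 6 of 10 and TBI+E33 2 for 10 of 10. In the TBI+PMI group PMI 1 led for 5 and PMI 2 for 4. Of all tested probes, 52.9% were highest in TBI 2, 49.3% in Naïve 2, 71.8% in Sham 2, 22.3% in TBI+JM6 2 and 72.4% in TBI+E33 2. Except in TBI+JM6, the rat that led for most members also had the most probes above background in its group or, in TBI+PMI, nearly so (22794 and 22822 in PMI 1 and PMI 2), and the part this played was not tested.

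**Figure D3:**
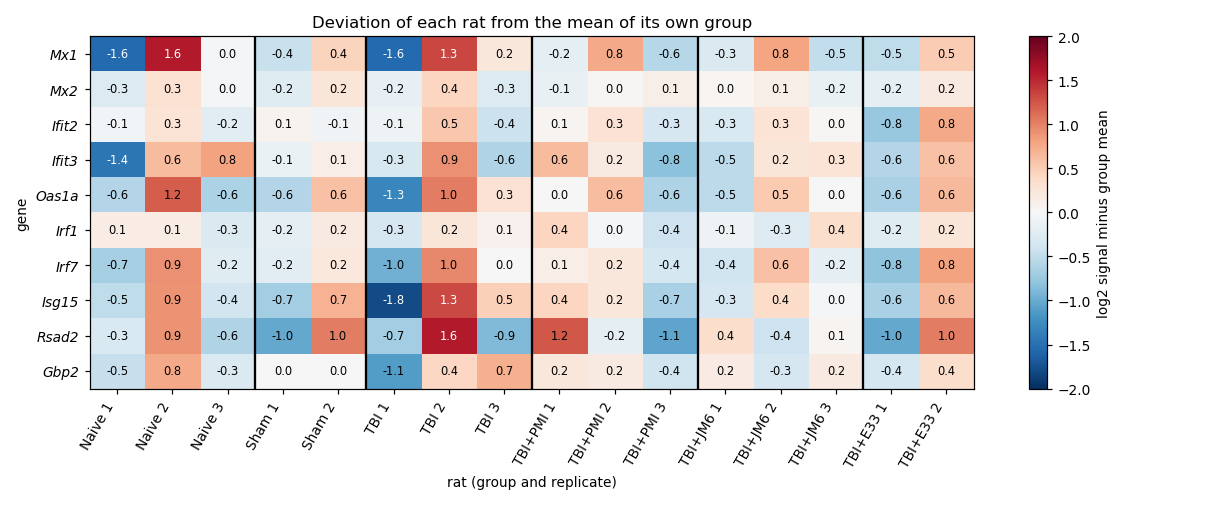
Log2 signal of each gene (rows) in each rat (columns) minus the mean of that rat's own group, red above and blue below. Naïve 2, TBI 2 and TBI+E33 2 are red for all 10 genes, TBI 1 is blue for all 10, and Irf1 and Mx2 are the palest rows.

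Pairs of members followed one another across rats unevenly. Over the 8 Naïve, Sham and TBI arrays the Pearson correlation was above 0 in 43 of 45 pairs with a median of 0.59, and over the 8 drug arrays in 42 of 45 with a median of 0.63. These arrays share groups, slides and sample quality, so the values are descriptive. The closest pair in the first set was Oas1a and Isg15 (r = 0.95), and in the second Ifit3 and Isg15 (r = 0.94). The loosest were Ifit2 with Gbp2 (r = -0.16) and Mx2 with Irf1 (r = -0.16). The gene names most like the members' mean standardised signal over the first 8 arrays were RGD1303142 (r = 0.98), Usp18 (r = 0.98), RGD1624210 (r = 0.98), Rps26 (r = 0.98) and an unnamed probe, A_64_P149316 (r = 0.98). Over the drug arrays they were XM_224998 (r = 0.98), RGD1559662 (r = 0.97), Tlk2 (r = 0.97), LOC689713 (r = 0.95) and Irgm (r = 0.95). Of these, Usp18 and Irgm are themselves known interferon-stimulated genes.

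In the drug comparisons the whole array moved, and the members must be read against that. The median of all tested probes was 0.99 for JM6, 0.79 for PMI and 1.08 for E33 relative to TBI, and 69.9%, 56.7% and 70.2% of all probes were called higher. The members' medians were 0.48, 0.70 and 1.14, and 1, 2 and 4 of 10 were called, all higher. So a smaller share of members than of all probes was called in each of the 3 comparisons. In TBI+JM6 7 of 10 members lay below the median of all probes, in TBI+PMI 6 of 10 and in TBI+E33 4 of 10.

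Ifit3 was the member called in all 3. It gave -2.03, -2.48 and -3.48 in TBI+PMI, -3.56, -2.80 and -2.77 in TBI+JM6, and -2.75 and -1.57 in TBI+E33 rats. All 8 were above the highest TBI rat (-3.58), TBI+JM6 1 by little. Its difference from TBI was 1.84 (SE 0.60, adjusted p = 0.0201) with PMI, 1.45 (SE 0.60, adjusted p = 0.0455) with JM6 and 2.34 (SE 0.67, adjusted p = 0.00825) with E33 in limma. Measured from the median of all probes, Ifit3 stayed above it in each comparison. The JM6 call for Ifit3 was lost without TBI 1, TBI 3, TBI+JM6 2 or TBI+JM6 3, the PMI call without TBI 1, TBI 3, TBI+PMI 1 or TBI+PMI 2, and the E33 call without TBI+E33 2.

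Gbp2 gave 0.70, 0.65 and 0.08 in TBI+PMI, 0.49, -0.01 and 0.51 in TBI+JM6, and 0.09 and 0.80 in TBI+E33 rats. Only TBI+JM6 2 fell within the range of the TBI rats. The difference was 1.17 (SE 0.44, adjusted p = 0.0367) with PMI, and 1.03 (SE 0.44, adjusted p = 0.0513) with JM6 and 1.14 (SE 0.49, adjusted p = 0.0519) with E33 missed the threshold. The PMI call for Gbp2 was lost without TBI 1, TBI+PMI 1 or TBI+PMI 2. Gbp2 passed with JM6 and E33 when either TBI 2 (adjusted p = 0.0405 in both) or TBI 3 (adjusted p = 0.0214 and 0.0223) was left out.

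The E33 calls for the other members leaned on 1 rat. Ifit2 gave -3.70 and -2.19, Irf7 -2.13 and -0.51, and Mx2 1.68 and 2.05 in TBI+E33 rats, the second rat being the higher for each. Ifit2 rose by 1.32 (SE 0.39, adjusted p = 0.00982), Irf7 by 1.63 (SE 0.60, adjusted p = 0.0285) and Mx2 by 0.69 (SE 0.25, adjusted p = 0.0258) relative to TBI in limma. Without TBI+E33 2, 0 of 10 members were called, and the lone rat was then assumed to vary like the other groups. Without TBI 1 2 of 10 were called, and without TBI 2, the rat high for 9 members, 7 of 10 were, and 4 of 10 each with JM6 and PMI. The share of all probes called in these refits is not given here, so the counts do not set the members apart. With all rats in the fit that share was 70.2% higher with E33, 69.9% with JM6 and 56.7% with PMI.

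The remaining members were not called in any drug comparison. Isg15 gave 0.59, 0.39 and -0.49 in TBI+PMI, -0.24, 0.46 and 0.08 in TBI+JM6, and -0.05 and 1.23 in TBI+E33 rats, which overlapped the TBI rats. Rsad2 gave -0.89, -2.32 and -3.20 in TBI+PMI, -2.89, -3.64 and -3.18 in TBI+JM6, and -3.29 and -1.24 in TBI+E33 rats, and its TBI+JM6 mean differed by -0.07 (SE 0.81) from TBI. Mx1 reached -0.58 in TBI+PMI, -0.68 in TBI+JM6 and 0.22 in TBI+E33 rats, and Oas1a -2.33, -2.65 and -2.05.

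The probes of Irf1 disagreed. The brighter one gave 0.49 (SE 0.26, adjusted p = 0.123) with PMI, 0.43 (SE 0.26, adjusted p = 0.152) with JM6 and 0.52 (SE 0.29, adjusted p = 0.122) with E33, and was not called. The dimmer one was called in all 3, at 1.55 (SE 0.34, adjusted p = 0.00262), 1.47 (SE 0.38, adjusted p = 0.00506) and 1.35 (SE 0.38, adjusted p = 0.00837). In TBI+JM6 it rests on 2 rats, since the third had no usable spot.

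How the arrays were scaled decided the sign of many of these differences. After quantile normalization the medians of all probes were -0.02 (PMI), -0.00 (JM6) and -0.00 (E33). The split of calls over all probes then went from 69.9% higher and 0.175% lower to 13.9% and 13.3% in TBI+JM6 vs. TBI, from 56.7% and 0.0482% to 9.96% and 9.21% with PMI, and from 70.2% and 0.092% to 2376 probes higher and 2282 lower with E33. The members' medians became 0.04 with PMI, -0.27 with JM6 and 0.26 with E33. With JM6 7 of 10 members were below 0, and 1 member, Ifit2, was called, at -1.09 and thus lower. Rsad2 was at -1.32 and Oas1a at -0.99 with JM6, and neither was called. With PMI and E33 0 of 10 members were called after quantile normalization, at an adjusted or an unadjusted p under 0.05. On that scale Gbp2 (0.65 with PMI, 0.34 with JM6, 0.44 with E33), Ifit3 (0.76, 0.11 and 1.02) and Irf7 (0.52, 0.22 and 0.63) were above 0 in all 3 drug comparisons. Gbp2 in TBI vs. Sham stayed called, at 1.71 (adjusted p = 0.0419).

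**Figure D4:**
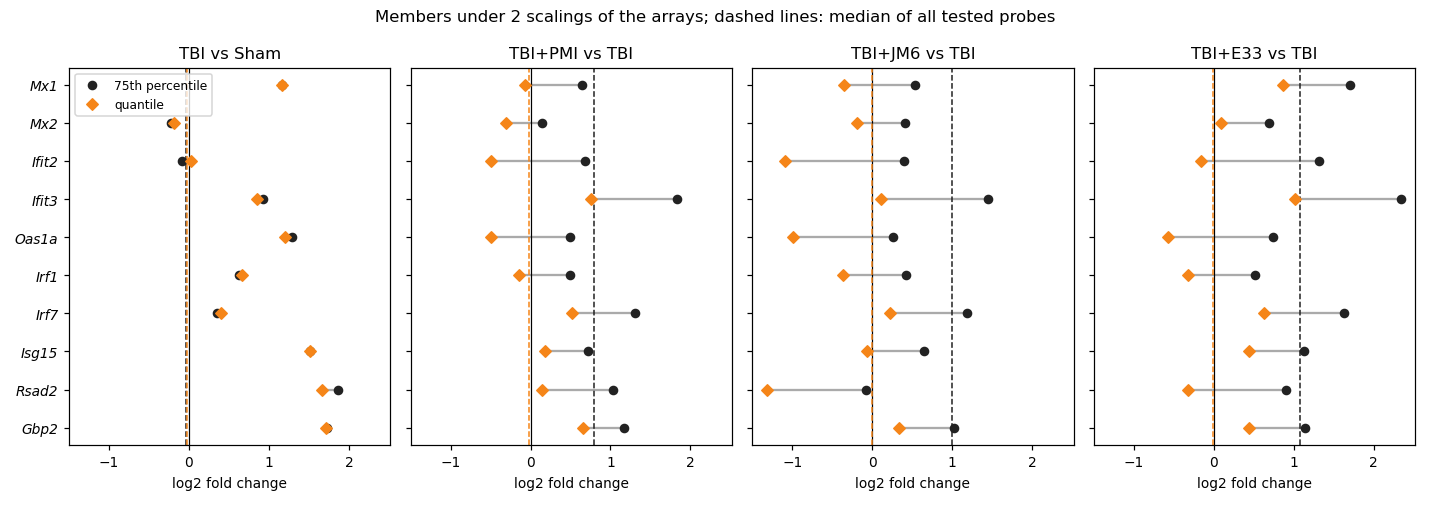
Log2 fold change (x axis) of the 10 genes (y axis) in 4 comparisons with the arrays scaled to the 75th percentile (black circles) or quantile normalized (orange diamonds), joined by a line, with dashed lines at the medians of all tested probes. The scalings nearly coincide for TBI vs. Sham, and in the drug comparisons all 10 genes shift left together with the median of all probes, 5 of them crossing 0 with PMI, 6 with JM6 and 4 with E33.

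Among the drug groups themselves, which share a session but not a slide (all TBI+PMI arrays on one, both TBI+E33 arrays on another, TBI+JM6 on both), 0 of 10 members differed in limma's F-test, at an adjusted p or at an unadjusted p under 0.05, and 0.0482% of all probes did. An unadjusted F-test on the 8 drug arrays alone, without limma's moderation, passed 1 member. Each gene gives 3 pairs of drug groups, with 95% intervals that are not adjusted for their number. The widest was for Rsad2, whose TBI+E33 minus TBI+PMI difference was -0.13 with an interval of -2.08 to 1.83. The narrowest was for Mx2, whose TBI+JM6 minus TBI+PMI difference was 0.26 with an interval of -0.22 to 0.74. The intervals that left out 0 were that of Mx2 in TBI+E33 minus TBI+PMI (0.54, 0.0019 to 1.08) and that of Ifit2 in TBI+JM6 minus TBI+E33 (-0.92, -1.77 to -0.07), and both genes had unadjusted F-test p over 0.05. For the TBI+PMI and TBI+E33 pair, group and slide coincide. The Rsad2 interval takes in differences as large as that between TBI and Sham, so equal action was not shown.

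The other genes of the pathway were listed as 87 symbols in 6 groups, of which 78 were on the array and 67 were tested. In TBI vs. Sham 3 of the 67 were called, all higher, and in TBI vs. Naïve 8, all higher, against 2.93% and 2.98% of all probes. The interferons themselves were near or below detection. Ifna1, Ifnb1 and Ifng were well above background on 0 of 16 arrays, so for these genes only an upper bound exists. Ifna4 was above background on 7 of the 8 arrays of drug-treated rats and on 0 of the 8 arrays of Naïve, Sham and TBI rats. The drug arrays were scanned in a session of their own and had more probes of all kinds above background.

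Of 10 tested sensors and inducers 0 were called in TBI vs. Sham. Tlr7, the endosomal RNA sensor, was called in TBI vs. Naïve at 1.28 (adjusted p = 0.0282) and differed by 0.78 (adjusted p = 0.15) from Sham. Dhx58, a regulator of the RNA helicases, differed from Sham by 0.79 (adjusted p = 0.246), Tlr3 by 0.70 (adjusted p = 0.297), the STING gene Tmem173 by 0.37 (adjusted p = 0.29), and Tbk1, the kinase of Irf3, by -0.64 (adjusted p = 0.204).

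Of 8 tested receptor and signalling genes 0 were called in TBI vs. Sham. Jak2, a kinase bound to cytokine receptors, differed by 0.59 (adjusted p = 0.169), Stat2 by 0.48 (adjusted p = 0.229) and Ifnar1 by -0.25 (adjusted p = 0.462). Irf9, the DNA-binding part of ISGF3, gave -2.36, -2.16 and -2.17 in Naïve, -1.40 and -1.24 in Sham, and -1.05, -0.80 and -1.17 in TBI rats. Its Sham and TBI rats were thus all above the Naïve rats: it was called in Sham vs. Naïve at 0.91 (adjusted p = 0.0413) and in TBI vs. Naïve at 1.23 (adjusted p = 0.0121), and in TBI vs. Sham it differed by 0.31 (adjusted p = 0.455). Ifnar1 was the other gene of the 67 called in Sham vs. Naïve, at 0.77 (adjusted p = 0.0334).

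Of 3 tested feedback inhibitors 0 were called in TBI vs. Sham. Socs3, which answers many cytokines, gave -7.20, -6.34 and -5.86 in Naïve, -6.68 and -5.79 in Sham, and -3.95, -3.91 and -4.63 in TBI rats. It was not well above background in any Naïve rat, so it was at least 3.65-fold higher in TBI vs. Naïve (fitted 2.30, adjusted p = 0.0351), and it just missed in TBI vs. Sham at 2.07 (adjusted p = 0.0539). Usp18, which removes Isg15 from proteins and dampens the type I receptor, differed by 0.49 (adjusted p = 0.636) from Sham, and Socs1 by -0.00 (adjusted p = 0.998). Socs1 was well above background in only 1 of 2 Sham and 1 of 3 TBI rats, so a lack of change was not shown for it.

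Of 35 tested other interferon-stimulated genes 3 were called in TBI vs. Sham, all higher, and their median difference was 0.60. Ifitm3, a membrane protein that stops viral entry, differed by 1.92 (adjusted p = 0.0409), the nuclear body protein Sp100 by 1.47 (adjusted p = 0.0319) and the lysosomal reductase Ifi30 by 1.28 (adjusted p = 0.0414). Ifi27l2b differed by 1.43 (adjusted p = 0.0514) and Adar, the RNA-editing enzyme, by -1.18 (adjusted p = 0.0639). Adar was well above background in 2 of 2 Sham rats but in 1 of 3 TBI rats. Of 10 antigen presentation and chemokine genes 0 were called in TBI vs. Sham. Cxcl10, a chemokine that draws T cells, gave -7.62, -6.46 and -8.13 in Naïve, -7.23 and -6.21 in Sham, and -5.88, -2.88 and -5.30 in TBI rats, a difference of 2.03 (adjusted p = 0.178) from Sham. Its signal was well above background in 0 of 3 Naïve, 1 of 2 Sham and 2 of 3 TBI rats. Like Isg15 and Rsad2, Cxcl10 was highest in TBI 2. Cxcl9 gave -6.65, -6.11 and -5.58 in Naïve, -7.23 and -6.67 in Sham, and -6.48, -5.68 and -5.12 in TBI rats. It was well above background in 2 of 3 Naïve, 0 of 2 Sham and 2 of 3 TBI rats. The TBI rats overlapped the Naïve rats, and Cxcl9 was not called in TBI vs. Sham (adjusted p = 0.0736). Cxcl11 was not well above background in any Sham or TBI rat. The peptide transporter Tap1 differed by 1.26 (adjusted p = 0.11) and the immunoproteasome subunit Psmb9 by 1.12 (adjusted p = 0.181).

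Markers of other cells also differed between rats, in part along with the members and in part not. The summed linear signal of 9 leukocyte markers, with the array's 75th percentile as 1, in Naïve rats was 0.0613 to 0.106, in Sham rats 0.266 to 0.364, in TBI rats 0.551 to 2.98 and in drug-treated rats 1.49 to 3.97. The summed signal of the 10 members lay between 2.81 and 5.43 in Naïve, 3.09 and 4.44 in Sham, 3.13 and 7.59 in TBI and 5.75 and 11.9 in drug-treated rats. Mx2 was the largest part of that sum in every rat, at 2.01 of 2.81 in Naïve 1 and 3.06 of 7.59 in TBI 2. Among TBI rats both sums were lowest in TBI 1 (0.551 and 3.13) and highest in TBI 2 (2.98 and 7.59). The member sum was highest of all in TBI+E33 2, as was the leukocyte sum among rats with all 9 markers measured. In TBI+JM6 2 the S100a8 spot was left out as an outlier. Its leukocyte sum (3.27) lacks that marker, so it is a lower bound and cannot be ranked. In a linear sum the brightest probes weigh most, and in TBI 2 these leukocyte markers were S100a9 (log2 0.86) and S100a8 (log2 -0.02). Cd3e ran the other way, at log2 -1.98, -5.60 and -2.69 in TBI 1, 2 and 3. Naïve 2, the Naïve rat with the highest member sum, had the lowest leukocyte sum of all 16. Of the 9 leukocyte markers 1 to 2 were well above background in a Naïve rat, 2 and 4 in the Sham rats, and 3, 5 and 6 in the TBI rats. In a drug-treated rat 6 to 8 were, on arrays that had more probes of all kinds above background. The sum of 9 microglial markers lay between 14.1 and 16.4 in Naïve, 14.7 and 24.9 in Sham, 22.4 and 24.5 in TBI and 21 and 28.8 in drug-treated rats. Within that list Itgam was called higher in TBI vs. Sham (1.40, adjusted p = 0.0149), and P2ry12 (-1.41, adjusted p = 0.013) and Tmem119 (-2.17, adjusted p = 0.00925) were called lower. In TBI vs. Naïve no marker of the list was called on its brightest probe, while a dimmer probe of Aif1 (0.86, adjusted p = 0.019) and of Itgam (1.43, adjusted p = 0.0226) was called higher. The sum of 6 neuronal markers lay between 12.2 and 12.5 in Naïve, 19.1 and 19.9 in Sham and 10.02 and 15.96 in TBI rats, so the TBI range took in the Naïve one. Of these 6 markers 2 were called lower in TBI vs. Sham and none in TBI vs. Naïve by limma, against 6.48% and 1.73% of all probes. The sum of 5 choroid plexus markers was 76.7 in Naïve 2, 121 in Sham 1 and 151 in TBI+PMI 1 and 0.188 to 7.58 in the other 13 rats. The part of these cells in the members' values was not tested, and in whole tissue fewer cells of a type and less RNA per cell cannot be told apart.

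**Figure D5:**
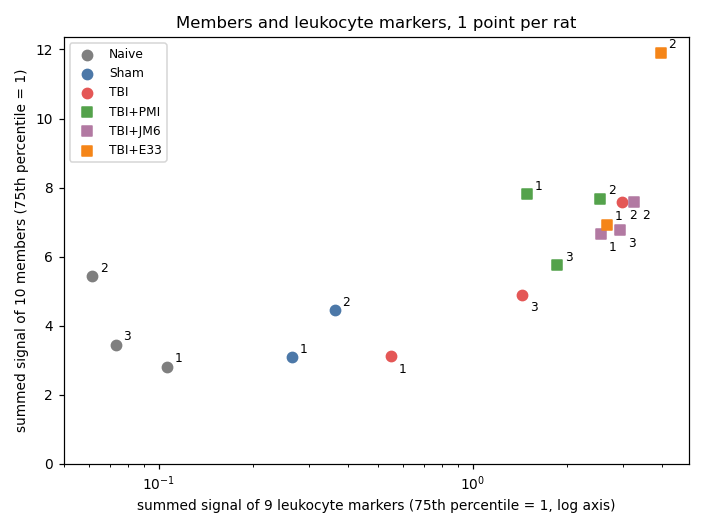
Summed linear signal of the 10 genes (y axis) against that of 9 leukocyte markers (x axis, log scale), both with the array's 75th percentile as 1, 1 point per rat numbered by replicate, circles for the first and squares for the second scan session. TBI 1, TBI 3 and TBI 2 lie in rising order on both axes, and Naïve 2 lies above the other Naïve rats at the lowest leukocyte sum. Mx2 is the largest part of the members' sum in every rat. The leukocyte sum of TBI+JM6 2 lacks S100a8, whose spot was left out.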

How the data were processed

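Hippocampal RNA of 16 rats was amplified by the authors, with a kit that is not stated for each rat, and hybridised to single-colour Agilent rat arrays, 1 per rat. The deposited scanner files (Agilent Feature Extraction) give the intensity of each spot, background subtracted and detrended within its array, without normalization across rats. The matrix that the authors deposited gives a linear ratio to the array's 75th percentile and follows one distribution on all arrays, and it served as an alternative.

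Spots of a probe were averaged without outlier spots, signals were expressed relative to the 75th percentile of those probes that an array measured well above background, and put on a log2 scale. Of all probes 14295 were above background on all 16 arrays. A single limma model with 6 group means and 10 residual degrees of freedom was fitted to 22827 probes across all genes and tested on simulated data. The Irf1 result uses its brighter probe. R 4.3.3 with limma 3.58.1 and the package data.table (1.17.8), Python 3.11.15, pandas 2.3.3 and matplotlib 3.10.9 were used.

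The members, the gene lists, the named genes (all members, up to 5 genes per list by lowest p in TBI vs. Sham, with Stat2, Irf9 and Usp18, and the 5 most alike in each session, less 1 listed gene that is not reported here) and the alternatives were chosen with earlier results of these data known. Mavs, Tmem173 and Rbfox3 were read under older names. P-values measure the spread between these rats. In all, 4 slides of 4 arrays were scanned: Naïve 1, 2 and both Sham, then Naïve 3 and TBI, then TBI+PMI and TBI+JM6 1, then TBI+JM6 2, 3 and TBI+E33. The number of arrays limits the precision. The alternatives were quantile normalization, normexp (offset 50), the percentile over all probes, the authors' matrix, no filter, a filter on all arrays, limma on the compared groups, the methods' t-test (its unadjusted form, p under 0.05 with over 1.2-fold, was added after seeing the data), slide and replicate blocks, the mean over probes, and each rat left out in turn.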

Additional observations from a re-analysis of the deposited data

How the results depend on the processing

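Over 1068 comparisons of a single member's value with an alternative, 875 kept their direction and side of the threshold, 81 lost and 32 gained the call, and 80 changed sign. Except where stated, the cause was not tested. The number of members called (for TBI 1 against Sham and 1 against Naïve, for Sham 0 against Naïve, 1 in TBI+JM6, 2 in TBI+PMI and 4 in TBI+E33 vs. TBI, 0 among the drug groups) became 0 in every comparison with normexp and with the methods' t-test after Benjamini-Hochberg. Without adjustment the methods' t-test passed, in the same order of comparisons, 0, 2, 0, 0, 1, 0 and 1. Quantile normalization gave 1, 1, 0, 1, 0, 0 and 0, the percentile over all probes 1, 2, 0, 0, 0, 0 and 0, no filter 0, 1, 0, 0, 2, 4 and 0, the filter on all arrays (8 members, without Ifit3 and Rsad2) 1, 2, 0, 2, 2, 4 and 0, the authors' matrix 1, 2, 0, 1, 0, 0 and 0, limma on the compared groups only 0, 0, 0, 1, 1, 1 and 0, the slide as a random block 1, 1, 0, 3, 3, 5 and 0, and the mean over probes 1, 1, 0, 2, 3, 5 and 0. Normexp called few probes of any kind: 0.0131% of all probes higher in TBI vs. Sham and 0.153% in TBI vs. Naïve. With JM6, PMI and E33 it called 21.4%, 6.29% and 14% higher. Quantile normalization called 3.72% higher in TBI vs. Sham and 2.99% in TBI vs. Naïve. For the methods' t-test the share over all probes is not given here. The slide as a fixed block gave 0 in each comparison within a session and could not be fitted for a drug group against TBI. The fit with the replicate block gave 0, 1, 0, 2, 3, 5 and 0, but same-numbered rats did not deviate together (median r 0.019 over 36 pairs, against -0.013 for 70 other pairs), so the numbers do not pair the rats. Leaving out 1 rat at a time gave 0 to 2 for TBI against Sham, 0 to 3 against Naïve, 0 to 4 in TBI+JM6, 0 to 4 in TBI+PMI and 0 to 7 in TBI+E33 vs. TBI, and 0 in Sham vs. Naïve and among the drug groups.

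Sign changes gathered in the drug comparisons. With quantile normalization the log2 difference was Mx1 -0.35, Mx2 -0.19, Ifit2 -1.09, Oas1a -0.99, Irf1 -0.37 and Isg15 -0.060 in TBI+JM6, Mx1 -0.064, Mx2 -0.31, Ifit2 -0.50, Oas1a -0.49 and Irf1 -0.15 in TBI+PMI, and Ifit2 -0.15, Oas1a -0.57, Irf1 -0.32 and Rsad2 -0.31 in TBI+E33. With the authors' matrix it was Mx1 -0.35, Mx2 -0.17, Ifit2 -0.95, Oas1a -0.95, Irf1 -0.36 and Isg15 -0.056 in TBI+JM6, Mx1 -0.054, Mx2 -0.28, Ifit2 -0.47, Oas1a -0.46 and Irf1 -0.12 in TBI+PMI, and Ifit2 -0.11, Oas1a -0.53, Irf1 -0.30 and Rsad2 -0.27 in TBI+E33. With the percentile over all probes it was Mx1 -0.25, Mx2 -0.38, Ifit2 -0.39, Oas1a -0.53, Irf1 -0.36 and Isg15 -0.14 in TBI+JM6, Mx2 -0.50, Oas1a -0.15 and Irf1 -0.16 in TBI+PMI, Mx2 -0.14, Oas1a -0.091 and Irf1 -0.31 in TBI+E33, and Mx2 -0.0017 in Sham vs. Naïve. These scalings lowered the median of all probes as well. Normexp gave Rsad2 0.18 in TBI+JM6 and Ifit2 0.28 in TBI vs. Sham and 0.085 in TBI vs. Naïve. In TBI vs. Sham, Ifit2 was 0.027 with quantile normalization, 0.029 with the replicate block, 0.080 with the authors' matrix and 0.25 with the fixed slide block, where Ifit3 was -0.29, and relative to Naïve Ifit3 was -0.090 in TBI and 0.20 in Sham rats.

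With 1 rat left out, the log2 differences that changed sign were as follows. In TBI vs. Naïve they spanned -0.0005 to 1.13 for Ifit3, -1.33 to 0.24 for Mx1 and -0.33 to 0.037 for Mx2. In Sham vs. Naïve they spanned -0.12 to 0.35 for Mx2, -0.020 to 0.59 for Gbp2, -0.93 to 0.20 for Ifit3, -0.88 to 0.30 for Oas1a, -1.97 to 0.089 for Rsad2 and -0.45 to 0.96 for Isg15. In TBI vs. Sham they spanned -0.47 to 0.0090 for Mx2, -0.13 to 0.83 for Irf7 and -0.36 to 0.12 for Ifit2. In TBI+JM6 vs. TBI they spanned -0.24 to 1.2 for Mx1, -0.40 to 0.77 for Oas1a, -0.25 to 1.30 for Isg15 and -0.52 to 0.72 for Rsad2. In TBI+PMI vs. TBI they spanned -0.13 to 1.31 for Mx1, -0.16 to 1.01 for Oas1a and -0.18 to 1.37 for Isg15. In TBI+E33 vs. TBI they spanned -0.12 to 1.93 for Rsad2. The number of arrays and the few rats per group limit the precision of every value.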
